A study of Mus musculus with 18 samples.

Results

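The 10 genes described here belong to the feedback and early response system of the kinase ERK, and were followed across 6 kinds of mouse pluripotent stem cell: the Sprouty genes *Spry1*, *Spry2* and *Spry4*, the Spred genes *Spred1* and *Spred2*, the ETS factors *Etv4* and *Etv5*, and the early genes *Egr1*, *Fos* and *Ier3*. They were chosen by name as targets and brakes of this pathway, with earlier results of these data known. They are 10 of the 35773 genes counted. All 10 were found in the count tables and all 10 passed the filter of at least 10 counts in at least 3 samples that left 16901 genes to test. Fibroblast growth factors and other ligands activate ERK through Ras, Raf and MEK. Active ERK phosphorylates ETS-domain partners of serum response factor, which switch on immediate early genes such as *Egr1*, *Fos* and *Ier3*, and it induces *Etv4* and *Etv5* together with Sprouty and Spred proteins, which restrain the same cascade at the level of Ras and Raf. In mouse embryonic stem cells ERK activity favors exit from naive pluripotency, and the 2i medium of naive cells therefore contains a MEK inhibitor.

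The study compared the transcriptome of a pluripotent cell state grown in a new medium with naive and primed cells, using polyA RNA from bulk cultures and 3 replicates in each of 6 groups. All 18 samples are labelled wild type, of strain 129S2/SvPasCrl. By the paper's methods, however, AFSC lines came from 129/sv mothers and transgenic reporter males of mixed strain background. The labels therefore need not give the full genotype. ESCs were naive embryonic stem cells in 2i/LIF. AFSCs were primed stem cells kept in N2B27 medium with Activin A and FGF2. ASCs were made from AFSCs by culture in ABCL, which is N2B27 with Activin A, BMP4, the GSK3 inhibitor CHIR99021 and LIF, and survived as clones after most cells had died. ESC-ASCs were 2i/LIF ESCs converted by culture in ABCL. EpiLCs, epiblast-like cells, and EpiSCs, epiblast stem cells, were the other 2 groups, and their media are not given in the sources used here. ABCL thus holds neither an added fibroblast growth factor nor the MEK inhibitor of 2i. Which ESC line each ESC and ESC-ASC sample came from is not given in the labels. The paper names the ESC lines SQ3.3 and E14 as those converted to ESC-ASCs. It is not said whether replicates are separate lines or cultures of a line. The p-values therefore set each difference against the spread among these samples only.

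Depth and markers set limits on what follows. Total counts per sample ran from 17813619 to 18071600 in ESC-ASCs and from 4961934 to 9906473 in the other groups, and the ESC-ASC libraries were counted in a separate run with the same settings, so that library set and cell state cannot be told apart in comparisons with ESC-ASCs. In ASCs, AFSCs, EpiLCs and ESCs, replicate 1 differed from replicates 2 and 3 by 21.5 to 100 (chi-square per degree of freedom over genes) while replicates 2 and 3 differed from each other by 1.65 to 11.8, and counts without these 4 libraries are given beside the results. Sums of naive and of primed genes separated ESCs, ASCs and ESC-ASCs from EpiLCs, AFSCs and EpiSCs. They do not check the labels within either set. The summed level of 6 naive genes was 3820 to 4880 normalized read counts per kb in ESCs, 3810 to 4530 in ASCs and 2820 to 3040 in ESC-ASCs, against 97.5 to 121 in EpiLCs, 17.2 to 24.0 in AFSCs and 9.02 to 10.4 in EpiSCs. A summed level of 6 primed genes ran the other way, from 109 to 285 in the former 3 groups and from 1240 to 3060 in the latter 3. *Fgf5*, *Otx2*, *Zic2* and *Pou3f1* were each higher in all samples of the latter 3 groups. *T* and *Eomes* were not, because of EpiLCs. There *T* was at 4.99 to 6.50 against 18.7 to 22.2 in ESCs, and *Eomes* at 10.3 to 14.9 against 17.1 to 24.0 in ASCs. In bulk cultures a lower level can come from fewer expressing cells or from less RNA per cell, and these cannot be told apart. The summed level of 8 endoderm genes was 219 to 234 in EpiSCs and 92.5 to 116 in AFSCs, against 11.6 to 26.4 elsewhere. In AFSCs it was mostly *Foxa2*, at 82.5 to 99.4, and *Gata4*, *Gata6* and *Sox17* did not follow it: *Gata4* was at 0 to 0.69 in AFSCs against 4.47 to 6.05 in ESCs, and *Gata6* and *Sox17* had means of 2.39 and 1.51 in AFSCs against 5.66 and 2.76 in ASCs. In EpiSCs *Foxa2* (148 to 163), *Sox17* (31.6 to 37.0) and *Gata6* (24.7 to 30.1) were all at their highest, and *Afp* was at 0 in every ESC and EpiSC sample. The paper reported *Gata6* and *Gata4* as unique to AFSCs by RT-qPCR, with strong *Sox17*. Here the means were lower in AFSCs than in EpiSCs: 0.407 against 1.53 for *Gata4*, 2.39 against 26.5 for *Gata6* and 1.51 against 34.6 for *Sox17*. These markers thus do not settle the AFSC and EpiSC labels. Fibroblast genes, 9 in number, summed to 127 to 137 in EpiLCs, 75.7 to 105 in ESCs, 75.7 to 119 in ASCs, 68.2 to 101 in AFSCs, 50.8 to 61.5 in ESC-ASCs and 17.3 to 23.0 in EpiSCs, with *Col3a1*, *Lum* and *Postn* at 0 in ESC-ASCs and *Dcn* and *Lum* at 0 in EpiSCs. Single genes carried these sums: in EpiLCs *Dcn* was at 54.4 to 79.8 and *Thy1* at 42.6 to 45.6, while *Col1a1* (0.704 to 5.54) and *Col3a1* (0.235 to 1.53) lay below their ESC levels of 14.4 to 29.4 and 6.05 to 17.9. In ESC-ASCs the sum was mostly *Thy1*, at 49.5 to 58.8. The part of such cells in the levels below was not tested.

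The promoters of 3 of the genes are shown because *Spry1* and *Spry2* are paralogs whose levels ran in different orders across the groups, while *Fos* is an early gene with few counts in naive cells. Each line gives the 250 bases before the start site in the RefSeq annotation of GRCm38.p6, on the strand of the gene, 5′ to 3′, with motif matches in capitals. The windows lie at chr3:37639697-37639946 (plus strand) for *Spry1*, chr14:105896820-105897069 (minus strand) for *Spry2* and chr12:85473640-85473889 (plus strand) for *Fos*, and each ends at the base just before the gene in the authors' annotation.
Spry1: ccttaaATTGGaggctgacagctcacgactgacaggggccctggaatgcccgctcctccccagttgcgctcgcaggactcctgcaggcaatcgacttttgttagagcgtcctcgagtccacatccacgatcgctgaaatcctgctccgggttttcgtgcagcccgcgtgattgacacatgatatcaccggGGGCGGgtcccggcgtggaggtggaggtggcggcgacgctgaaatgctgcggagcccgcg
Spry2: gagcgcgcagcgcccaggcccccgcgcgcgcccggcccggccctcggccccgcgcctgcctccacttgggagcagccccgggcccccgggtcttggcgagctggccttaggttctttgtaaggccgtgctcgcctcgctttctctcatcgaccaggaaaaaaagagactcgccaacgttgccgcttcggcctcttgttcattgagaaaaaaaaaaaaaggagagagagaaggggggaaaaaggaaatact
Fos: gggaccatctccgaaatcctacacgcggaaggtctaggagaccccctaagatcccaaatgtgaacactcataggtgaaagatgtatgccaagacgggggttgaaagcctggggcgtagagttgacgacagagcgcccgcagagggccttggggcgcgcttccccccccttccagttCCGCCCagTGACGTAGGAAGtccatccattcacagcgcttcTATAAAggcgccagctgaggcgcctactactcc
The motifs were searched on both strands and were the CArG box of serum response factor, AP-1 (TGANTCA), the CRE half-site (TGACGT), an ETS core (CCGGAA), the PEA3 core (AGGAAG), EGR (GCGNGGGCG), the TATA box (TATAAA), the CCAAT box (CCAAT) and the GC box (GGGCGG), the last of which can overlap an EGR match. *Spry1* held a CCAAT box on the opposite strand, beginning at -244, and a GC box at -60. *Spry2* held no match to any of the 9. *Fos* held a GC box on the opposite strand at -74, then a CRE half-site at -66 that runs directly into a PEA3 core at -60, and a TATA box at -33. Of 32851 promoter windows of this length, 32.7% held a GC box, 33.8% a CCAAT box, 29.5% a PEA3 core, 12.4% a TATA box and 6.47% a CRE half-site. The table held windows for 7 of the 10 genes, 8 windows in all; *Spry4*, *Etv4* and *Egr1* are not in it. None of the 8 windows held an AP-1, EGR, CArG or CCGGAA match, which all windows held at 6.75%, 4.7%, 1.47% and 12%. Bases farther upstream than 250 were not searched, so the absence of a match, as of a CArG box in *Fos*, holds for these windows only.

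Levels are given as normalized read counts per kb, which are counts divided by a size factor for the sample and by the exonic length of the gene. They can be compared between genes and between groups. Differences are log2 fold changes with their standard errors from an edgeR quasi-likelihood fit over all 18 samples, and each adjusted p is Benjamini-Hochberg adjusted over the 16901 genes tested. None of the 10 genes shares exonic bases with another gene.

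*Spry1* (ENSMUSG00000037211, chr3:37639947-37644598), a membrane-bound inhibitor of receptor tyrosine kinase signaling, was at 4.74, 4.41 and 3.84 normalized read counts per kb in the 3 ESC samples. It was at 61.1, 51.9 and 61.2 in ESC-ASCs, 32.3, 45.0 and 40.0 in ASCs, 55.3, 62.7 and 57.4 in EpiLCs, 25.5, 27.9 and 29.9 in AFSCs and 19.4, 19.7 and 21.0 in EpiSCs. All 15 samples outside 2i/LIF thus lay above the 3 ESC samples, and the highest groups were EpiLCs and ESC-ASCs. The log2 fold change against ESCs was 3.77 ± 0.198 in EpiLCs, 3.74 ± 0.196 in ESC-ASCs, 3.16 ± 0.202 in ASCs, 2.69 ± 0.208 in AFSCs and 2.21 ± 0.212 in EpiSCs, with adjusted p between 8.68e-12 and 2.71e-08. Each step down this order passed the test except the first: EpiLCs and ESC-ASCs were not separated (log2 difference 0.03 ± 0.141, adjusted p = 0.856). The ESC level rests on 28 counts over the 3 samples, so the ratio of EpiLCs to ESCs, 13.8, has a 95% counting interval of 9.45 to 21.0.

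*Spry4* (ENSMUSG00000024427, chr18:38586268-38601268), which also acts on Ras activation, had the widest range of the 10 genes. The ESC samples held 1, 6 and 5 counts, or 0.429, 1.52 and 1.22 normalized read counts per kb. ASCs were highest, at 129, 126 and 139, followed by EpiLCs at 51.1, 82.9 and 81.7 and ESC-ASCs at 64.8, 53.7 and 56.8. AFSCs were at 34.9, 39.1 and 44.7 and EpiSCs at 25.5, 26.5 and 22.7. EpiLCs and ESC-ASCs overlapped with each other, and no other 2 groups did. The log2 fold change against ESCs was 6.78 ± 0.277 in ASCs, 5.94 ± 0.282 in EpiLCs, 5.62 ± 0.283 in ESC-ASCs, 5.08 ± 0.293 in AFSCs and 4.39 ± 0.303 in EpiSCs (adjusted p between 2.19e-12 and 2.37e-10). With 12 counts in all in ESCs, the ratio of ASCs to ESCs is known only to between 65.0 and 221 (95% counting interval around 114). ASCs exceeded the AFSCs they were made from by 1.70 ± 0.175 on the log2 scale (adjusted p = 1.02e-07), while EpiLCs and ESC-ASCs were not separated from each other (adjusted p = 0.0987). *Spry1* and *Spry4* had the closest profiles of any 2 members, with a Pearson's r of 0.93 between their log2 normalized counts over the 18 samples. The 3 tested genes most like *Spry4* by the same measure were *Nkd2* (r = 0.982), *H2-Q10* (0.95) and *Flt4* (0.941), and those most like *Spry1* were *Raver2* (0.967), *Glt1d1* (0.965) and *Arhgap29* (0.964).

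*Spry2* (ENSMUSG00000022114, chr14:105891949-105896819) differed from its paralogs in that it was abundant in ESCs, at 368, 416 and 401 normalized read counts per kb. EpiSCs were higher than all other samples, at 697, 642 and 711. ESC-ASCs, at 173, 182 and 170, and EpiLCs, at 165, 163 and 188, lay below all 12 others. ASCs were at 401, 453 and 446 and AFSCs at 424, 472 and 460, and the ASC range overlapped with those of ESCs and AFSCs. Against ESCs, *Spry2* was 2.28-fold lower in ESC-ASCs (log2 fold change -1.19 ± 0.108, adjusted p = 2.47e-08), 2.29-fold lower in EpiLCs (-1.20 ± 0.110, adjusted p = 2.27e-08) and 1.71-fold higher in EpiSCs (0.78 ± 0.107, adjusted p = 3.38e-06). ASCs (0.11 ± 0.107, adjusted p = 0.405) and AFSCs (0.20 ± 0.107, adjusted p = 0.118) did not pass the test. The Sprouty genes therefore changed in different directions in the same samples: in ESC-ASCs and in EpiLCs, *Spry1* and *Spry4* were above the ESC level and *Spry2* below it. *Zfp703* (r = 0.959), *Six5* (0.945) and *Dapk2* (0.941) had the profiles most like that of *Spry2*.

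**Figure D1:**
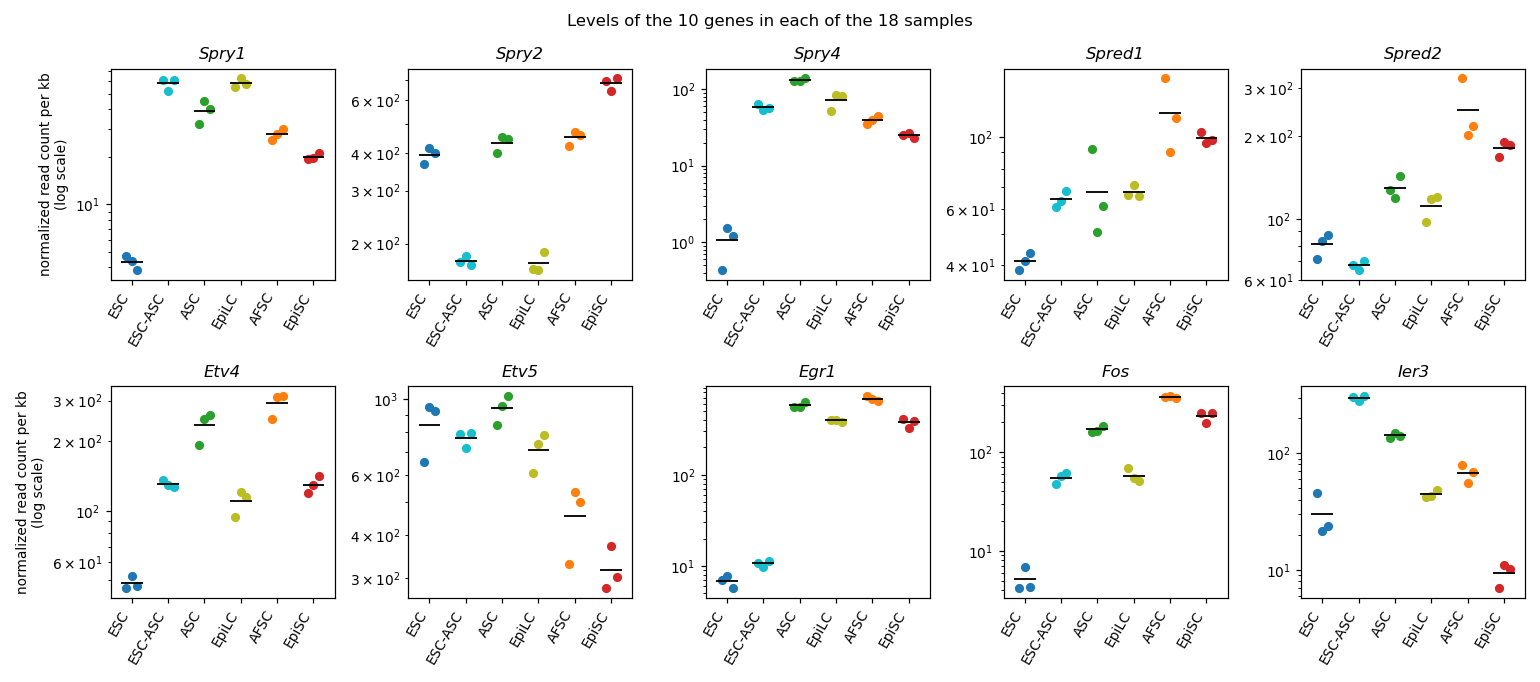
Normalized read counts per kb (log scale) of the 10 genes in each of the 18 samples, by group; points are samples in the order of replicates 1 to 3 and black lines are group means. *Spry1*, *Spry4* and *Fos* are lowest in the 3 ESC samples, *Egr1* is below 12 in both ESCs and ESC-ASCs and at or above 327 elsewhere, and *Spry2* is lowest in ESC-ASCs and EpiLCs.

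The Spred genes encode relatives of the Sprouty proteins that bring the Ras inhibitor neurofibromin to the membrane. *Spred1* (ENSMUSG00000027351, chr2:117121374-117182279) was lowest in ESCs, at 38.6, 41.3 and 43.6 normalized read counts per kb. It was at 60.8, 63.6 and 68.3 in ESC-ASCs, 91.8, 50.8 and 61.0 in ASCs and 66.3, 71.3 and 65.6 in EpiLCs, and at 153, 90.4 and 115 in AFSCs and 104, 96.4 and 98.5 in EpiSCs. All other samples exceeded the 3 ESC samples, but replicate 1 stood above the other replicates of ASCs and of AFSCs. Every group was higher than ESCs, by 0.62 ± 0.190 in ESC-ASCs, 0.70 ± 0.192 in ASCs, 0.72 ± 0.192 in EpiLCs, 1.26 ± 0.192 in EpiSCs and 1.54 ± 0.193 in AFSCs on the log2 scale, with adjusted p from 0.00832 down to 1.17e-06. Without ASC replicate 1, the difference between ASCs and ESCs was 0.41 and no longer passed (adjusted p = 0.0544). ASCs, EpiLCs and ESC-ASCs were not separated from each other, nor were AFSCs and EpiSCs (adjusted p = 0.251).

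*Spred2* (ENSMUSG00000045671, chr11:19924375-20024026) was at 71.6, 82.9 and 87.7 in ESCs and at 68.2, 65.0 and 70.4 in ESC-ASCs, all of which lay just below the ESC samples. ASCs were at 128, 119 and 143 and EpiLCs at 97.3, 118 and 120. EpiSCs were at 168, 191 and 186, and AFSCs at 326, 202 and 218, where replicate 1 was again the highest. AFSCs exceeded ESCs by 1.62 ± 0.162 on the log2 scale (adjusted p = 5.54e-08), EpiSCs by 1.15 ± 0.161 (adjusted p = 4.00e-06), ASCs by 0.66 ± 0.161 (adjusted p = 0.00225) and EpiLCs by 0.47 ± 0.161 (adjusted p = 0.0177). The EpiLC call was lost without EpiLC replicate 2 (0.43, adjusted p = 0.0574), EpiLC replicate 3 (0.42, adjusted p = 0.0642) or ESC replicate 1 (0.39, adjusted p = 0.0698). The ESC-ASC difference from ESCs, -0.27 ± 0.160, did not pass (adjusted p = 0.154), but did without the 4 libraries that stood apart (-0.34, adjusted p = 0.00452). AFSCs and EpiSCs differed by 0.46 (adjusted p = 0.023) with AFSC replicate 1 and by 0.22 (adjusted p = 0.187) without it. *Spred1* and *Spred2* had an r of 0.824 over the 18 samples. *Phkb* (r = 0.958), *Zfp677* (0.948) and *Zswim6* (0.944) were most like *Spred1*, and *Pitpnm2* (0.964), *Zfp575* (0.958) and *Gli3* (0.958) most like *Spred2*.

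*Etv4* and *Etv5* encode ETS transcription factors of the PEA3 group, which act downstream of fibroblast growth factor signaling. *Etv4* (ENSMUSG00000017724, chr11:101769742-101785371) was at 46.3, 52.5 and 47.4 in ESCs. Its levels were 136, 129 and 127 in ESC-ASCs, 193, 251 and 259 in ASCs and 93.8, 121 and 115 in EpiLCs, and 250, 311 and 314 in AFSCs and 119, 130 and 141 in EpiSCs. ESCs were below all other samples, and AFSCs and ASCs were the highest groups with overlapping ranges. Against ESCs the log2 fold change was 2.58 ± 0.152 in AFSCs, 2.24 ± 0.151 in ASCs, 1.40 ± 0.148 in ESC-ASCs, 1.40 ± 0.150 in EpiSCs and 1.17 ± 0.150 in EpiLCs (adjusted p between 2.90e-11 and 1.91e-06). The step from AFSCs to ASCs, -0.35 ± 0.137 (adjusted p = 0.0343), did not pass without ASC replicate 1 (-0.22, adjusted p = 0.163).

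*Etv5* (ENSMUSG00000013089, chr16:22381309-22439719) was the most abundant of the 10 genes, with a mean of 672 normalized read counts per kb over the 18 samples, and it went a different way from *Etv4*. It was at 655, 947 and 921 in ESCs, 789, 718 and 795 in ESC-ASCs, 842, 954 and 1020 in ASCs and 607, 738 and 783 in EpiLCs. AFSCs, at 330, 535 and 499, and EpiSCs, at 280, 371 and 301, lay below all 12 of these samples. *Etv5* was 1.85-fold lower in AFSCs than in ESCs (log2 fold change -0.89 ± 0.186, adjusted p = 4.02e-04) and 2.67-fold lower in EpiSCs (-1.42 ± 0.188, adjusted p = 2.16e-06). The ASC, ESC-ASC and EpiLC differences from ESCs were 0.14 ± 0.184, -0.15 ± 0.184 and -0.24 ± 0.184 and did not pass (adjusted p = 0.563, 0.497 and 0.279). ESC replicate 1 was the lowest ESC sample for this gene: without the 4 libraries that stood apart, both ESC-ASCs (-0.29, adjusted p = 0.013) and EpiLCs (-0.32, adjusted p = 0.0176) were lower than ESCs. AFSCs thus had the highest mean of *Etv4*, and a lower level of *Etv5* than ESCs. Over the 18 samples the r between *Etv4* and *Etv5* was -0.2, and *Etv5* had negative r with *Spred1* (-0.751) and *Spred2* (-0.67). The genes most like *Etv5* were *Gm10479* (r = 0.973), *Tex19.1* (0.969) and *Gm10197* (0.963), and those most like *Etv4* were *Adgra2* (0.958), *Atf3* (0.948), itself an early gene, and *Clu* (0.946).

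*Egr1* (ENSMUSG00000038418, chr18:34859823-34864984), a zinc finger factor and the classical immediate early target of ERK, fell into a low and a high class. ESCs were at 7.03, 7.79 and 5.72 normalized read counts per kb and ESC-ASCs at 10.9, 9.70 and 11.4. ASCs were at 556, 550 and 620, EpiLCs at 402, 402 and 379, AFSCs at 729, 681 and 642 and EpiSCs at 411, 327 and 387. No sample lay between 11.4 and 327. The log2 fold change against ESCs was 6.65 ± 0.162 in AFSCs, 6.37 ± 0.161 in ASCs, 5.85 ± 0.159 in EpiLCs and 5.76 ± 0.159 in EpiSCs, with adjusted p from 6.72e-16 to 2.47e-15. ESC-ASCs exceeded ESCs by 0.63 ± 0.165 (adjusted p = 0.0028), or 1.55-fold. The low level in ESC-ASCs was measured in the deepest libraries, with 89 to 102 counts per sample against 2312 to 2533 in ASCs. EpiLCs and EpiSCs were not separated (adjusted p = 0.553). The difference between AFSCs and ASCs, 0.28 on the log2 scale (adjusted p = 0.0445), did not pass without the 4 libraries that stood apart (adjusted p = 0.138). *Herc6* (r = 0.971), *Gm45193* (0.963) and *Ctdspl* (0.955) were most like *Egr1*.

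*Fos* (ENSMUSG00000021250, chr12:85473890-85477273), the AP-1 subunit whose promoter is shown above, had 5 to 14 counts per sample in ESCs, or 4.19, 6.93 and 4.27 normalized read counts per kb. It was at 47.9, 56.9 and 60.7 in ESC-ASCs and 68.3, 54.2 and 51.0 in EpiLCs, at 161, 163 and 185 in ASCs and 247, 196 and 248 in EpiSCs, and at 359, 369 and 351 in AFSCs. Apart from EpiLCs and ESC-ASCs, whose ranges overlapped (log2 difference 0.08 ± 0.149, adjusted p = 0.646), the groups did not overlap. The log2 fold change against ESCs was 6.09 ± 0.207 in AFSCs, 5.43 ± 0.208 in EpiSCs, 4.98 ± 0.209 in ASCs, 3.45 ± 0.219 in EpiLCs and 3.37 ± 0.215 in ESC-ASCs (adjusted p between 2.31e-14 and 2.49e-10). The ratio of AFSCs to ESCs, 68.3, has a 95% counting interval of 47.1 to 103. In EpiLCs and EpiSCs *Egr1* did not separate while *Fos* did, by 1.98 ± 0.150 on the log2 scale (adjusted p = 2.30e-09). *Fignl2* (r = 0.965), *Lrrc8c* (0.964) and *Ulk2* (0.963) were most like *Fos*.

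*Ier3* (ENSMUSG00000003541, chr17:35821684-35822923), an early gene involved in cell survival, had an order of its own. ESC-ASCs were highest, at 302, 282 and 309 normalized read counts per kb, and ASCs came next, at 136, 150 and 140. AFSCs were at 79.8, 55.3 and 68.7, EpiLCs at 41.9, 43.0 and 48.3, ESCs at 45.3, 21.6 and 23.7, and EpiSCs at 6.96, 10.9 and 10.1. The 2 ABCL cultures were therefore above all other samples, and EpiSCs below. All 5 steps of the order passed the test, but the step from EpiLCs to ESCs, 0.64 ± 0.231 (adjusted p = 0.0254), had overlapping samples and did not pass without ESC replicate 2 (0.45, adjusted p = 0.153) or ESC replicate 3 (0.49, adjusted p = 0.132), nor without EpiLC replicate 3 (0.57, adjusted p = 0.0762). Against ESCs, *Ier3* was 10.3-fold higher in ESC-ASCs (log2 fold change 3.36 ± 0.212, adjusted p = 2.08e-10), 4.87-fold higher in ASCs (2.28 ± 0.216, adjusted p = 9.27e-08), 2.37-fold higher in AFSCs (1.24 ± 0.225, adjusted p = 9.15e-05) and 3.0-fold lower in EpiSCs (-1.58 ± 0.284, adjusted p = 7.63e-05). EpiSCs held 6 to 14 counts of *Ier3* per sample. Its closest profiles were *Bhlhe40* (r = 0.97), *Cblc* (0.961) and *Vwa8* (0.951).

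**Figure D2:**
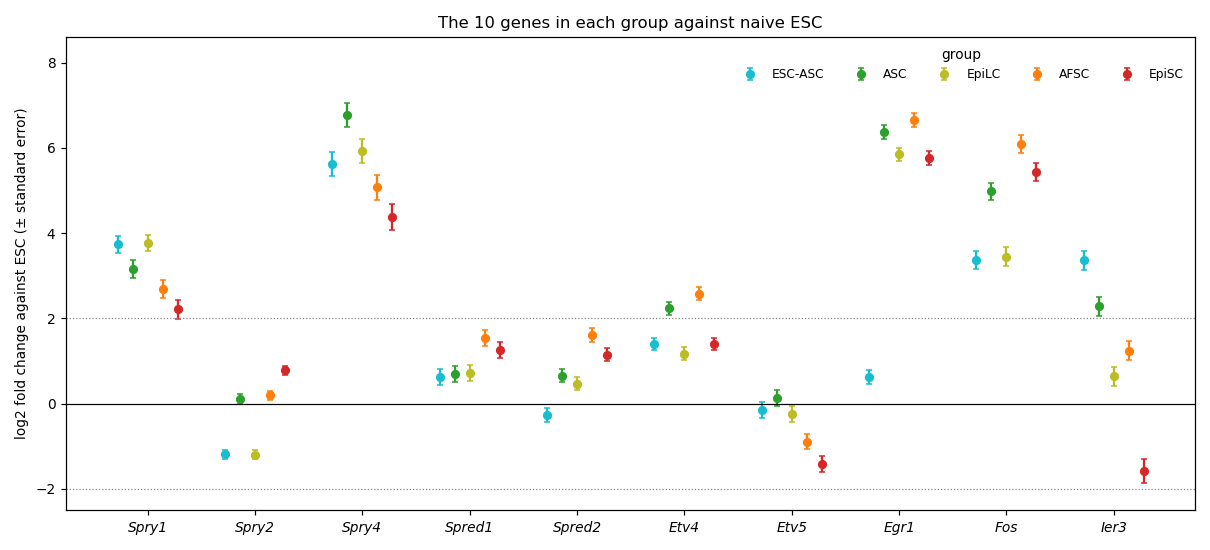
Log2 fold change (± standard error) of the 10 genes in the other 5 groups against ESCs, from the fit over 18 samples, with dotted lines at 4-fold. *Spry1*, *Spry4* and *Fos* lie above 2 in all 5 groups, *Egr1* lies between 5.76 and 6.65 in 4 groups and at 0.63 in ESC-ASCs, and *Etv5* is at or near 0 or below it.

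Against naive ESCs, the 10 genes were on balance higher in each group, and the counts have to be read beside a background in which 50.3% to 61.2% of all tested genes changed. In ASCs, 8 of the 10 were higher and none lower, with all 10 values above 0, where 26.4% of all tested genes were higher, 23.9% lower and 50.3% changed in either direction; *Spry2* and *Etv5* did not pass. Changes beyond 4-fold were rarer: *Spry1*, *Spry4*, *Etv4*, *Egr1*, *Fos* and *Ier3* were more than 4-fold higher in ASCs, 6 of 10 genes, where 11.4% of all genes changed by as much in either direction. The median log2 fold change in ASCs was 2.26 over the 10 genes and 0.02 over all. Because the 10 genes were chosen with earlier results of these data known, these counts and medians only describe them. In ESC-ASCs, 7 were higher and *Spry2* lower (30.6% of all genes higher, 29.6% lower, 60.1% changed), with 4 higher beyond 4-fold (9.66%). In EpiLCs, 8 were higher and *Spry2* lower (28.7% of all genes higher, 26.6% lower, 55.3% changed), with 4 higher beyond 4-fold (10.2%). In AFSCs, 8 were higher and *Etv5* lower (29.7% of all higher, 30.8% lower, 60.5% changed), with 5 higher beyond 4-fold (11.9%). In EpiSCs, 8 were higher and *Etv5* and *Ier3* lower (29.2% of all higher, 32.0% lower, 61.2% changed), with 4 higher beyond 4-fold (11.1%). These 5 comparisons share the ESC samples. *Spry1*, *Spry4* and *Fos* were beyond 4-fold in all 5 of them. Leaving out the 4 libraries that stood apart gave 8, 10, 10, 9 and 10 genes changed in ASCs, ESC-ASCs, EpiLCs, AFSCs and EpiSCs, and left the counts beyond 4-fold at 6, 4, 4, 5 and 4.

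ASCs were next compared with the AFSCs from which they were made. In ASCs 4 of the 10 genes were higher and 5 lower, beside 32.8% and 31.2% of all genes, and none moved beyond 4-fold, as 19.4% of all genes did, by edgeR or by DESeq2 (the log2 value farthest from 0 was 1.70). *Spry4* (1.70 ± 0.175), *Ier3* (1.04 ± 0.191, adjusted p = 1.09e-04), *Etv5* (1.02 ± 0.186, adjusted p = 1.02e-04) and *Spry1* (0.46 ± 0.154, adjusted p = 0.0134) were higher on the log2 scale. *Fos* was 2.16-fold lower in ASCs (-1.11 ± 0.141, adjusted p = 1.60e-06), *Spred2* 1.94-fold lower (-0.96 ± 0.157, adjusted p = 3.34e-05) and *Spred1* 1.79-fold lower (-0.84 ± 0.186, adjusted p = 6.72e-04), although the ranges of *Spred1* overlapped. *Spry1* did not pass without ASC replicate 2 (0.36, adjusted p = 0.0715). *Egr1* and *Etv4*, at -0.28 ± 0.116 and -0.35 ± 0.137, were lower by small amounts. Neither passed without ASC replicate 1 (adjusted p = 0.0847 and 0.163) or without AFSC replicate 2 (0.0695 and 0.0997). *Egr1* also did not pass without ASC replicate 2 (0.125) or AFSC replicate 1 (0.113), nor *Etv4* without AFSC replicate 3 (0.104). *Spry2* did not differ beyond its spread (-0.09 ± 0.106, adjusted p = 0.486).

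Against EpiLCs, ASCs had higher levels of 6 genes and lower *Spry1*, beside 31.4% and 28.4% of all genes, and none of the 10 differed beyond 4-fold, against 13.7% of all. *Ier3* (1.65 ± 0.197, adjusted p = 1.01e-06), *Fos* (1.53 ± 0.149, adjusted p = 7.93e-08), *Spry2* (1.31 ± 0.110, adjusted p = 1.05e-08) and *Etv4* (1.06 ± 0.141, adjusted p = 3.50e-06) differed by more than 2-fold. *Spry4* (0.84 ± 0.168, adjusted p = 2.95e-04) and *Egr1* (0.52 ± 0.116, adjusted p = 8.38e-04) were higher by less. *Spry1* was 1.52-fold lower in ASCs (-0.61 ± 0.147, adjusted p = 0.00159). *Spred1*, *Spred2* and *Etv5* did not pass, at -0.02 ± 0.187, 0.19 ± 0.158 and 0.38 ± 0.184.

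Between the primed lines, EpiSCs held less of 8 genes than AFSCs and more of *Spry2*, beside 21.6% and 17.8% of all genes, and 39.4% in either direction. *Ier3* was 7.09-fold lower in EpiSCs (-2.83 ± 0.253, adjusted p = 4.63e-08) and was the only 1 of the 10 beyond 4-fold, as 9.51% of all genes were. *Etv4* (-1.18 ± 0.140, adjusted p = 1.78e-06), *Egr1* (-0.88 ± 0.117, adjusted p = 6.40e-06), *Spry4* (-0.69 ± 0.183, adjusted p = 0.00546) and *Fos* (-0.66 ± 0.139, adjusted p = 8.65e-04) were lower by smaller amounts. *Spry2* was higher by 0.58 ± 0.106 (adjusted p = 2.27e-04), and *Spred1* did not pass (-0.28 ± 0.184, adjusted p = 0.251). The calls of *Spry1* (-0.48 ± 0.161), *Spred2* (-0.46 ± 0.156) and *Etv5* (-0.53 ± 0.186) depended on single libraries. *Spry1* did not pass without AFSC replicate 3 (adjusted p = 0.0785), EpiSC replicate 1 (0.0691) or EpiSC replicate 2 (0.0616), and *Spred2* did not without AFSC replicate 1 (0.187), EpiSC replicate 1 (0.097) or EpiSC replicate 3 (0.053). *Etv5* did not without replicates 2 or 3 of AFSCs (0.135 and 0.0957) or replicates 1 or 3 of EpiSCs (0.124 and 0.0937).

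The 2 cultures in ABCL differed from each other most at *Egr1*. ESC-ASCs held 53.4-fold less *Egr1* than ASCs (-5.74 ± 0.146, adjusted p = 2.84e-15), the only difference among the 10 genes beyond 4-fold, where 7.4% of all genes were lower and 1.67% higher by as much. Without any 1 of the replicates in turn the value stayed between -5.78 and -5.68. Of the rest, *Fos* was 3.05-fold lower in ESC-ASCs (-1.61 ± 0.145, adjusted p = 5.44e-08), *Spry2* 2.46-fold (-1.30 ± 0.108, adjusted p = 2.07e-08), *Spry4* 2.24-fold (-1.16 ± 0.167, adjusted p = 1.48e-05), *Spred2* 1.91-fold (-0.93 ± 0.158, adjusted p = 8.68e-05) and *Etv4* 1.78-fold (-0.83 ± 0.138, adjusted p = 6.64e-05). *Ier3* was 2.11-fold higher (1.08 ± 0.176, adjusted p = 5.87e-05) and *Spry1* 1.49-fold higher (0.58 ± 0.144, adjusted p = 0.00275). In all, 6 genes were lower and 2 higher, beside 27.7% and 23.0% of all genes. *Spred1* and *Etv5* did not pass, at -0.07 ± 0.185 and -0.29 ± 0.184, though *Etv5* did without the 4 libraries that stood apart (-0.38, adjusted p = 0.00241). *Egr1* and *Fos*, both immediate early genes, thus parted in ESC-ASCs: *Fos* was 10.3-fold above its ESC level and *Egr1* 1.55-fold.

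The gap between each ABCL culture and its starting kind of cell was then compared, as ASCs minus AFSCs against ESC-ASCs minus ESCs. No sample was taken upon entry to ABCL. By the paper, both ABCL cultures were kept over many passages, and ASCs came from surviving clones. These 2 contrasts share no samples. Whether the ESC samples are of the line that gave the ESC-ASCs is not given. A difference of line, of passage or from the selection of clones therefore cannot be told apart from the change of medium. The difference between the 2 contrasts passed the test for all 10 genes, beside 58.5% of all genes, and exceeded 4-fold for *Fos*, *Spry4*, *Spry1* and *Ier3*, beside 25.9% of all genes in either direction. It also takes in the gap between the starting cultures. For these 4 genes AFSCs exceeded ESCs by 6.09, 5.08, 2.69 and 1.24, while ESC-ASCs differed from ASCs by -1.61, -1.16, 0.58 and 1.08. The ESC levels of *Fos*, *Spry4* and *Spry1* rest on 28, 12 and 28 counts. *Fos* was lower in ABCL when the cells came from AFSCs (-1.11) and higher when they came from ESCs (3.37), a difference of -4.48 ± 0.259 on the log2 scale (adjusted p = 3.33e-11). *Etv4* (-0.35 and 1.40), *Spred1* (-0.84 and 0.62) and *Egr1* (-0.28 and 0.63) had the same pair of signs. *Spry4*, *Spry1* and *Ier3* were higher in ABCL from either start, by more from ESCs: 5.62 against 1.70 for *Spry4*, 3.74 against 0.46 for *Spry1* and 3.36 against 1.04 for *Ier3*. *Spred2* was lower in ASCs than in AFSCs (-0.96) and was at -0.27, not passing, in ESC-ASCs against ESCs. *Spry2* was lower in ESC-ASCs than in ESCs (-1.19) with no called change between AFSCs and ASCs. *Etv5* was higher in ASCs than in AFSCs (1.02) with no called change between ESCs and ESC-ASCs.

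**Figure D3:**
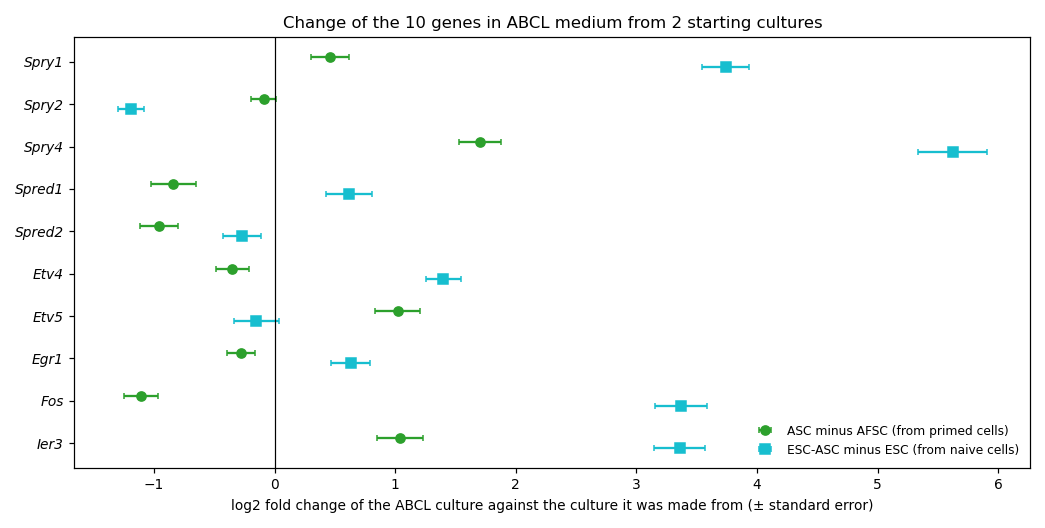
Log2 fold change (± standard error) of each gene in ABCL culture against its starting kind of cell: ASCs minus AFSCs (circles) and ESC-ASCs minus ESCs (squares). Whether the ESC samples are of the line that gave the ESC-ASCs is not given. *Spry4* is to the right of 0 from both starts, at 1.70 and 5.62, whereas *Fos* lies at -1.11 and 3.37.

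Across the 18 samples the genes did not form a single block. *Etv4* and *Fos* (r = 0.902), *Spred1* and *Fos* (0.851), *Egr1* and *Fos* (0.827) and *Spred1* and *Spred2* (0.824) were close, next to *Spry1* and *Spry4* (0.93). *Spry2* had an r of -0.522 with *Spry1* and of -0.591 with *Ier3*. The r between *Egr1* and *Ier3* was -0.206. These are descriptions over 18 samples in 6 groups, in which replicates share a group and library set.

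**Figure D4:**
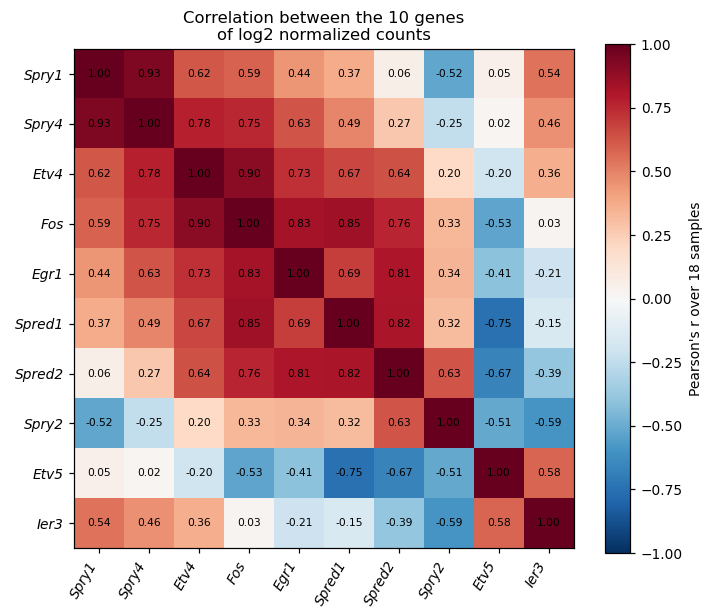
Pearson's r between log2 normalized counts of each pair of the 10 genes over the 18 samples. *Spry1* and *Spry4* are the closest pair (0.93), *Fos* is close to *Etv4*, *Spred1* and *Egr1*, and *Spred1* and *Etv5* are the most opposed (-0.751).

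Other genes of the pathway were described as lists. Their counts against ESCs are to be read beside the shares of all tested genes that were higher and lower: 26.4% and 23.9% in ASCs, 30.6% and 29.6% in ESC-ASCs, 28.7% and 26.6% in EpiLCs, 29.7% and 30.8% in AFSCs, and 29.2% and 32.0% in EpiSCs. Of its closest paralogs, *Spred3* and *Etv1* were tested. *Spred3* was at 5.20 to 7.92 normalized read counts per kb in ESCs, 2.51 to 3.93 in ESC-ASCs and 7.11 to 10.2 in ASCs, but at 32.1 to 38.3 in EpiLCs, 39.1 to 48.9 in AFSCs and 62.5 to 65.6 in EpiSCs. *Etv1* was ordered similarly, from 5.32 to 5.81 in ESC-ASCs up to 81.7 to 99.1 in EpiSCs. Both paralogs were thus low in the naive and ABCL cultures and high in the 3 others, in contrast to *Etv5*.

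Of 19 genes that carry the signal from receptor to ERK, including the adaptor *Grb2* and the kinases *Map2k1* and *Map2k2*, which encode MEK, 4 were higher and 3 lower in ASCs than in ESCs, with a median log2 fold change of 0.02, equal to that of all genes. The counts were 7 higher and 7 lower in ESC-ASCs, 6 and 8 in EpiLCs, 6 and 6 in AFSCs and 5 and 7 in EpiSCs, with medians from -0.07 to 0.2, beside the shares of all genes just given. *Map2k1* was lower than in ESCs in EpiLCs (-0.33 ± 0.138, adjusted p = 0.0499), AFSCs (-0.98 ± 0.140, adjusted p = 6.12e-06) and EpiSCs (-1.06 ± 0.140, adjusted p = 2.13e-06), and *Map2k2* in ASCs (-0.55 ± 0.179, adjusted p = 0.0159) and ESC-ASCs (-1.52 ± 0.182, adjusted p = 8.27e-07). *Grb2* was lower than in ESCs in all groups but ASCs, with log2 fold changes from -0.48 to -1.15.

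Of 11 other feedback and output genes, 6 were higher and 2 lower in ASCs than in ESCs (median 1.14), 4 and 4 in ESC-ASCs (0.17), 6 and 2 in EpiLCs (0.66), 7 and 2 in AFSCs (0.97) and 7 and 1 in EpiSCs (1.49), where 26.4% of all genes were higher and 23.9% lower in ASCs and 29.2% and 32.0% in EpiSCs. *Dusp6*, which encodes an ERK phosphatase, was at 15.6 to 24.6 normalized read counts per kb in ESCs, 55.9 to 63.8 in ESC-ASCs, 88.0 to 113 in ASCs, 253 to 268 in EpiSCs, 306 to 357 in EpiLCs and 379 to 447 in AFSCs, with no overlap between groups. *Myc* was at 3.35 to 7.13 in ESC-ASCs and 37.8 to 65.4 in ASCs, a log2 difference of -3.43 ± 0.240 (adjusted p = 2.30e-09), and at 7.26 to 10.1 in ESCs and 103 to 261 in the 3 remaining groups. *Myc* and *Egr1* were thus both low in ESC-ASCs and ESCs. *Il17rd*, a Sprouty-like membrane inhibitor, exceeded ESCs in AFSCs (0.97 ± 0.281, adjusted p = 0.00599) and EpiSCs (1.49 ± 0.282, adjusted p = 1.47e-04).

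Of 21 other early genes and serum response factor partners, 20 were tested. The counts against ESCs were 10 higher and 1 lower in ASCs (median 0.58), 10 and 4 in ESC-ASCs (0.57), 10 and 7 in EpiLCs (0.67), 14 and 4 in AFSCs (1.02) and 10 and 6 in EpiSCs (0.60), beside the shares of all genes given above. In ESC-ASCs 5 were higher and 10 lower than in ASCs, beside 23.0% and 27.7% of all genes. *Ier2* was lower in ESC-ASCs than in ASCs (-1.90 ± 0.195, adjusted p = 2.57e-07), *Dusp1* by -1.19 ± 0.196 (adjusted p = 6.31e-05) and *Jund* by -0.48 ± 0.170 (adjusted p = 0.0242). *Dusp1* was higher in ASCs than in ESCs (1.73 ± 0.201, adjusted p = 1.23e-06) and lower in EpiSCs than in ESCs (-1.50 ± 0.208, adjusted p = 3.95e-06).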

How the data were processed

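PolyA RNA from 18 cultures (6 groups of 3, grouped by the labels) was sequenced as paired ends. The authors mapped reads to GRCm38 with TopHat2 and used featureCounts 1.5.0-p1, per the file headers, to count fragments over the exons of each gene (Ensembl release 86). The deposited values are raw counts per gene, with 1 table per sample. Counting ignored strand, gave overlapping genes the same fragment and kept multiple mappings, so near-identical genes can share counts. Genes that reached 10 counts in 3 or more samples (16901 of 35773) were tested in R 4.3.3 with edgeR 4.0.16 (TMM, robust quasi-likelihood F test, 1 fit of 18 samples, common dispersion 0.0283), Benjamini-Hochberg adjusted over all genes within each comparison and called at an adjusted p below 0.05. The standard error is the log2 fold change divided by the square root of F. Levels are counts per exonic kb after scaling with size factors from DESeq2 1.42.0. Profiles were compared by r of log2(normalized count + 1). Exact 95% intervals on ratios of counts cover counting error only. On simulated counts for ASCs against ESCs (16347 genes), 68% of genes changed by a log2 of 1 and 92.6% of those changed by 2 were recovered, and 6.1% of calls were false. The simulation gave all groups the same mean levels and a single dispersion, changed few genes and held no outlying replicate. Its rates therefore check the code and need not hold for these data.

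The members and the lists (paralogs, receptor-to-ERK genes, feedback genes, early genes, stress genes, and markers) were chosen with earlier results of these data known. The genes named are the 10 members, the 3 most abundant genes of each pathway list (members and list genes not all in every comparison) and the 3 genes with the closest profile to each member. Marker and stress genes beyond these were named after their values were seen. Alternatives were other size factors, no filter, DESeq2, a replicate block, only the groups compared in the fit, and leaving out each replicate; leaving out the ESC-ASC samples, or the 4 libraries that stood apart, was chosen after seeing the data. Promoter sequences are from RefSeq (GRCm38.p6).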

Additional observations from a re-analysis of the deposited data

Results flagged for a closer look

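All 10 genes were flagged because the gap between ABCL culture and starting kind of cell differed between the starting cultures. The test was of that difference itself (ASCs minus AFSCs, less ESC-ASCs minus ESCs, n = 3 per group, edgeR quasi-likelihood test). The log2 difference was -4.48 for *Fos*, -3.92 for *Spry4*, -3.27 for *Spry1*, -2.32 for *Ier3*, -1.75 for *Etv4*, -1.47 for *Spred1*, -0.91 for *Egr1* and -0.69 for *Spred2*, and 1.17 for *Etv5* and 1.10 for *Spry2*. Adjusted p-values ran from 3.33e-11 for *Fos* to 0.013 for *Spred2*. Since 58.5% of all tested genes passed the same test, the count of 10 is to be read beside that share. The ESC-ASC libraries form a set of their own in depth and counting run, and the part of this in the differences cannot be told apart from that of the cells. A difference of line between the ESC and ESC-ASC samples cannot be told apart either, since the line of each sample is not given. The same holds for passage and for the selection of clones.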

How the results depend on the processing

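The number of the 10 genes called stayed within 1.5 times of the reported count in all 9 comparisons and in the test of the difference between starting cultures, under each alternative run. Leaving out each replicate in turn gave 7 to 8 genes for ASCs against ESCs (8 with all), 7 to 9 for EpiLCs against ESCs (9), 7 to 9 for ASCs against AFSCs (9) and 6 to 8 for EpiSCs against AFSCs (9). With only the groups compared in the fit, 6 genes were called for ASCs against AFSCs and 6 for EpiSCs against AFSCs. Counts beyond 4-fold were the same under all of these. Of 50 neighbouring steps in the orders of the groups, 33 passed the test, and 30 to 35 under the alternatives. Directions turned only for values that had not passed: *Etv5* in ASCs against ESCs was -0.03 without ESC replicate 1 and -0.03 to 0.24 over all such fits. *Spred1* in ASCs against EpiLCs (reported as -0.02) was 0.0 with DESeq2 size factors and with the DESeq2 Wald test, 0.04 without the filter, 0.04 without the ESC-ASC samples, and -0.3 to 0.15 when leaving out 1 replicate. *Spred1* in ESC-ASCs against ASCs was 0.18 without the 4 libraries that stood apart and -0.25 to 0.21 when leaving out 1 replicate. The cause of these turns was not tested. *Etv5* in ASCs against EpiLCs passed without the 4 libraries (0.41, adjusted p = 0.00342) and with DESeq2 (0.41, adjusted p = 0.0497). The replicate numbers in the labels did not pair the samples throughout. Deviations of same-numbered samples had a mean r of 0.0809 (45 pairs, -0.206 to 0.46, 19 of them over 0.1). Of 18 samples, 8 were closest to their own number. A mean over all pairs cannot decide whether part of the samples, such as the 4 libraries that stood apart, belong together. In a fit with a replicate block, the only gene whose call changed was *Etv5* in ASCs against EpiLCs (0.38, adjusted p = 0.0249). Levels scaled by TMM moved by more than 1 SD in 0 of 60 cases. *Spry4*, *Spry1* and *Fos* in ESCs and *Ier3* in EpiSCs rest on 14 or fewer counts per sample, which limits the precision of their ratios.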

Other observations

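A list of 10 stress genes, heat shock and unfolded protein genes among them, served as a description of the state of the cultures. Of these, 1 was higher and 5 lower in ASCs than in ESCs, 5 and 4 in ESC-ASCs, 1 and 3 in EpiLCs, 1 and 7 in AFSCs and 0 and 7 in EpiSCs, beside 26.4% and 23.9%, 30.6% and 29.6%, 28.7% and 26.6%, 29.7% and 30.8%, and 29.2% and 32.0% of all tested genes. Their summed level, most of it *Hspa8* and *Hsp90aa1*, was highest in ESCs and EpiLCs, at 22300 to 25800 and 19400 to 26100 normalized read counts per kb, and 11400 to 16500 in the other 4 groups. *Hspa8*, a chaperone, was at 11300 to 14400 in ESCs and at 3130 to 3810 in ESC-ASCs (log2 fold change -1.86 ± 0.214, adjusted p = 5.07e-07). *Hsp90aa1* was lower in AFSCs than in ESCs (-1.18 ± 0.149, adjusted p = 1.19e-06), and *Hspa5*, a chaperone of the endoplasmic reticulum, was lower in ESC-ASCs than in ASCs (-1.05 ± 0.269, adjusted p = 0.00344). Other genes of the list, named after their values were seen, ran against the sum: in ESC-ASCs *Ddit3* was at 498 to 532 against 99.9 to 130 in ESCs (log2 fold change 2.22 ± 0.194, adjusted p = 1.41e-08), *Gadd45b* at 716 to 755 against 258 to 404 (1.2 ± 0.274, adjusted p = 9.41e-04) and *Gadd45g* at 217 to 276 against 34.7 to 65.5 (2.30 ± 0.270, adjusted p = 6.65e-07). *Ddit3* and *Gadd45b* were highest in ESC-ASCs, and *Gadd45g* was highest in EpiLCs, at 445 to 625.

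Core pluripotency genes *Pou5f1*, *Sox2* and *Nanog* summed to 6210 to 12700 in all samples, but the members of this sum ran in different ways. The mean of *Sox2* was 2330 in ESCs and 76.1 in EpiSCs (log2 fold change -4.95 ± 0.216). *Nanog* was at 4110 in ESCs, 220 in EpiLCs (-4.22 ± 0.180) and 738 in AFSCs (-2.47 ± 0.166). *Pou5f1* went the other way, from 5220 in ESCs to 8090 in EpiSCs (0.62 ± 0.194). Of the 3, none was higher and 1 lower in ASCs than in ESCs. Among the 10 ERK-related genes, ASCs combined levels of *Egr1*, *Etv4* and *Fos* within 2.16-fold of those in primed AFSCs with a summed level of 6 naive genes, 3810 to 4530, that overlapped with the 3820 to 4880 of ESCs. Of the 10, *Spry4* differed most from AFSCs, at 3.26-fold higher. Outside the 10, *Dusp6* (-2.03 ± 0.136) and *Myc* (-2.10 ± 0.198) were lower in ASCs than in AFSCs on the log2 scale. ESC-ASCs, with a naive sum of 2820 to 3040, did not share the level of *Egr1*, at 9.70 to 11.4.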
